A study of Mus musculus with 22 samples.

Results

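Glycosyltransferases that build the sugar chains of mucins and of other glycoproteins and glycolipids were followed across 6 epithelial cell types of the mouse colon crypt. The members were all gene symbols of 12 families, Galnt, C1galt1, Gcnt, B3gnt, B3galt, B4galt, B4galnt, Fut, St3gal, St6gal, St6galnac and St8sia, chosen by name alone, and came to 79 of the 24421 symbols counted. They include 1 pseudogene, Fut4-ps1, and 1 antisense transcript, St8sia3os. RNA came from wild-type male C57BL/6N mice aged 5 to 7 weeks, with no treatment, and every gate took live Epcam+ cells negative for Cd31 and Cd45. Stem cells (Stem) were Cd44highest, Cd24low and Ckit-, absorptive progenitors (AbsPro) Cd44med/hi, Cd24low and Ckit-, and the mixed gate of secretory progenitors, deep crypt secretory cells and possibly goblet cells (SecPDG) Cd44hi, Cd24med and Ckitmed. Tuft cells were Ckit+ and Cd24hi, enterocytes (Ent) Cd44low/- and Cd24-, and enteroendocrine cells (EEC) Cd44low/- and Cd24+. There were 3 libraries of Stem, 3 of AbsPro, 4 of SecPDG, 5 of Tuft, 5 of Ent and 2 of EEC, each from at least 2500 cells. Mice were pooled within a library except in Stem and AbsPro.

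O-glycans of mucins begin when a GALNT enzyme adds N-acetylgalactosamine to a serine or threonine. C1galt1, which needs its chaperone C1galt1c1 (Cosmc), adds galactose to make core 1, Gcnt enzymes branch it to core 2, and B3gnt6 makes core 3, a structure known from the colon. B3gnt, B3galt and B4galt enzymes lengthen the chains, and fucosyltransferases (Fut), sialyltransferases (St3gal, St6gal, St6galnac, St8sia) and B4galnt enzymes cap them. Many of these enzymes also act on N-glycans or glycolipids.

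Counts on genes ranged from 4122122 (EEC 1) to 22462518 (Stem 2) per library. Levels are normalized counts, the deposited counts divided by library total times its TMM factor and set to the mean library. Genes of olfactory and vomeronasal receptors, which colon epithelium is not known to transcribe, served as background and held 13.1 to 151 CPM in Stem, AbsPro and SecPDG but 175 to 1435 in Tuft, 752 to 3788 in Ent and 596 to 6804 in EEC. Each sort held its own markers, the tuft list summing to 25573 to 68555 in Tuft and 3895 to 8424 in EEC, and at most 1076 in Stem, AbsPro, SecPDG and Ent. The absorptive list was highest in EEC 2 (142833), above AbsPro (at most 108573) and Ent (at most 79456), and EEC 1 held 23297. The 9 goblet and deep crypt secretory markers, Muc2 among them, summed to 874105 to 3431624 in SecPDG and also to 830737 to 1253887 in Tuft, against 22839 to 37259 in Stem. They summed to 96494 to 298386 in AbsPro, 251333 to 751890 in Ent and 40208 to 65695 in EEC. The immune list summed to 1300 to 3537 in Tuft, 599 and 1643 in EEC, 352 to 722 in Ent and 183 to 216 in Stem. The part of these markers in the results was not tested. In sorted bulk RNA, fewer cells of a type and less RNA per cell cannot be told apart. The deposited files of SecPDG and Tuft were named in another form than the rest, which cannot be told apart from cell type where they are compared with Stem or AbsPro.

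The members that rose in SecPDG against Stem, described next, are represented by 4 promoters. Of the 26 such members, 20 were in the RefSeq table and 14 of these had a single start, but the 250 bases before that start held annotated GENCODE exon in 9 of the 14. Shown are the windows of the 4 members with the largest increase among the other 5, on build GRCm38.p6, a choice made after the values were seen. They lie at chr8:57653056-57653305 (minus strand) for Galnt7, chr16:38742009-38742258 (plus) for B4galt4, chr11:57645192-57645441 (plus) for Galnt10 and chr2:32586828-32587077 (plus) for St6galnac4. Capitals mark the letters CCGGAT, an ETS core, searched on both strands.
Galnt7: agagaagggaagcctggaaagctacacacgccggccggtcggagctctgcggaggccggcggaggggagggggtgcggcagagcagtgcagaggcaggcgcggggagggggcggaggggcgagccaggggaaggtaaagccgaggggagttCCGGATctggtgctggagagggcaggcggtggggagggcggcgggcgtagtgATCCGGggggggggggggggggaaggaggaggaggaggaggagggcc
B4galt4: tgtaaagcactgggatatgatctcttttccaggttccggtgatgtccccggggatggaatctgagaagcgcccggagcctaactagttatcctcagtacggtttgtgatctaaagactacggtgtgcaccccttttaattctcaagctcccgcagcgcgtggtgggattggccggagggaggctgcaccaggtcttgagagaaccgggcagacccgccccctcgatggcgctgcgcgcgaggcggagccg
Galnt10: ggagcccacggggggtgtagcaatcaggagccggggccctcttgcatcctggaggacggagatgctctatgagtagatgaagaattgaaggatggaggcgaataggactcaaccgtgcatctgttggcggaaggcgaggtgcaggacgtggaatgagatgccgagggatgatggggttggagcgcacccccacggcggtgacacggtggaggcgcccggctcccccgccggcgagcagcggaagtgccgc
St6galnac4: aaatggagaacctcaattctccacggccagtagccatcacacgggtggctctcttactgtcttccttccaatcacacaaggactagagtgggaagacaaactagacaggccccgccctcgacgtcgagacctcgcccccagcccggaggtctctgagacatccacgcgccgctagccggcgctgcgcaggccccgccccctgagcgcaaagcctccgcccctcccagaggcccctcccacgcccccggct
The letters CCGGAT stood at 2 places in Galnt7 and in none of the other 3 windows. Among 32851 RefSeq windows of the same length, 4.94% held CCGGAT, against 2.63% of the 76 windows of members and 1 of the 31 windows of the members that rose in SecPDG (3.23%). These shares count windows and not genes, since the 76 came from 56 members and the 31 from 20. The letters CAGCTG, an E-box of the kind that Atoh1 binds, stood in 13% of all windows, 11.8% of the members' and 3.23% of those 31, and TATAAA in 12.4%, 2.63% and 6.45%, both strands counted. Neither stood in the 4 windows shown. GC content was 73.6% in Galnt7, 59.2% in B4galt4, 64.4% in Galnt10 and 65.2% in St6galnac4. Of the 79 members, 56 were in the table.

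All 79 members were tested, and 61 passed the minimum for a call, 50 normalized counts on average over the 22 libraries. The highest cell type mean fell in SecPDG for 30 members, EEC for 23, Ent for 11, Tuft for 10, Stem for 3 and AbsPro for 2. All 18 members under the minimum peaked in Ent or EEC, where background reads were highest. Fut7 (4.81), B4galt2 (3.40) and Galntl5 (3.01) in EEC and St8sia3os (3.11) in Ent reached 3 times background there. The rest of these low members stayed below it. A gene is called here where it met that minimum and had a Benjamini-Hochberg adjusted p under 0.01 in edgeR's quasi-likelihood test, fitted once to all 6 cell types and 22781 genes. Of the 79 members, 41 were called in at least 1 of 8 comparisons and 38 in none. The 38 comprised the 18 low members, B3galt1, B3gnt4, B3gnt8, B4galt2, Fut10, Fut4-ps1, Fut7, Galnt13, Galnt9, Galntl5, St6gal2, St6galnac1, St6galnac3, St6galnac5, St8sia3os, St8sia4, St8sia5 and St8sia6, and 20 members above the minimum, B3galt4, B3galt6, B3gnt2, B3gnt3, B3gnt9, B4galnt2, B4galt1, B4galt3, B4galt5, B4galt7, Fut1, Fut11, Galnt1, Galnt11, Galnt15, Galnt4, Gcnt2, Gcnt7, St3gal2 and St8sia3.

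Per kilobase of exon, B4galnt2, which adds the N-acetylgalactosamine of the Sda antigen, stood highest of all members, at 20760 normalized counts per kb in SecPDG and 4373 in Ent. The leaders of the other families by level per kb, averaged over the cell types, were Gcnt3 (1404), which makes core 2 and core 4 branches, Galnt7 (1362), which prefers substrates that already carry sugar, B3gnt7 (1156), St6galnac6 (896), Fut2 (833), C1galt1c1 (678), B4galt1 (534), St3gal4 (505), B3galt5 (423), St6gal1 (239) and St8sia2 (13.2). Summed over its 18 genes, the Galnt family reached 16060 ± 2465 normalized counts per kb in SecPDG (SD, n = 4) and 11040 ± 2639 in Tuft (n = 5), against 3736 ± 193 in Stem (n = 3). The 2 C1galt1 genes summed to 3135 ± 365 in SecPDG and 391 ± 105 in Stem. The St8sia sums were 7.85 and 221 per kb in the 2 EEC libraries, so that their mean of 114 rests on EEC 1, and 98.8 ± 32.1 in Ent. In Ent, 34.3 per kb of this came from the antisense transcript St8sia3os, and the other 6 members stood at 0.311 to 1.69 times background.

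**Figure D1:**
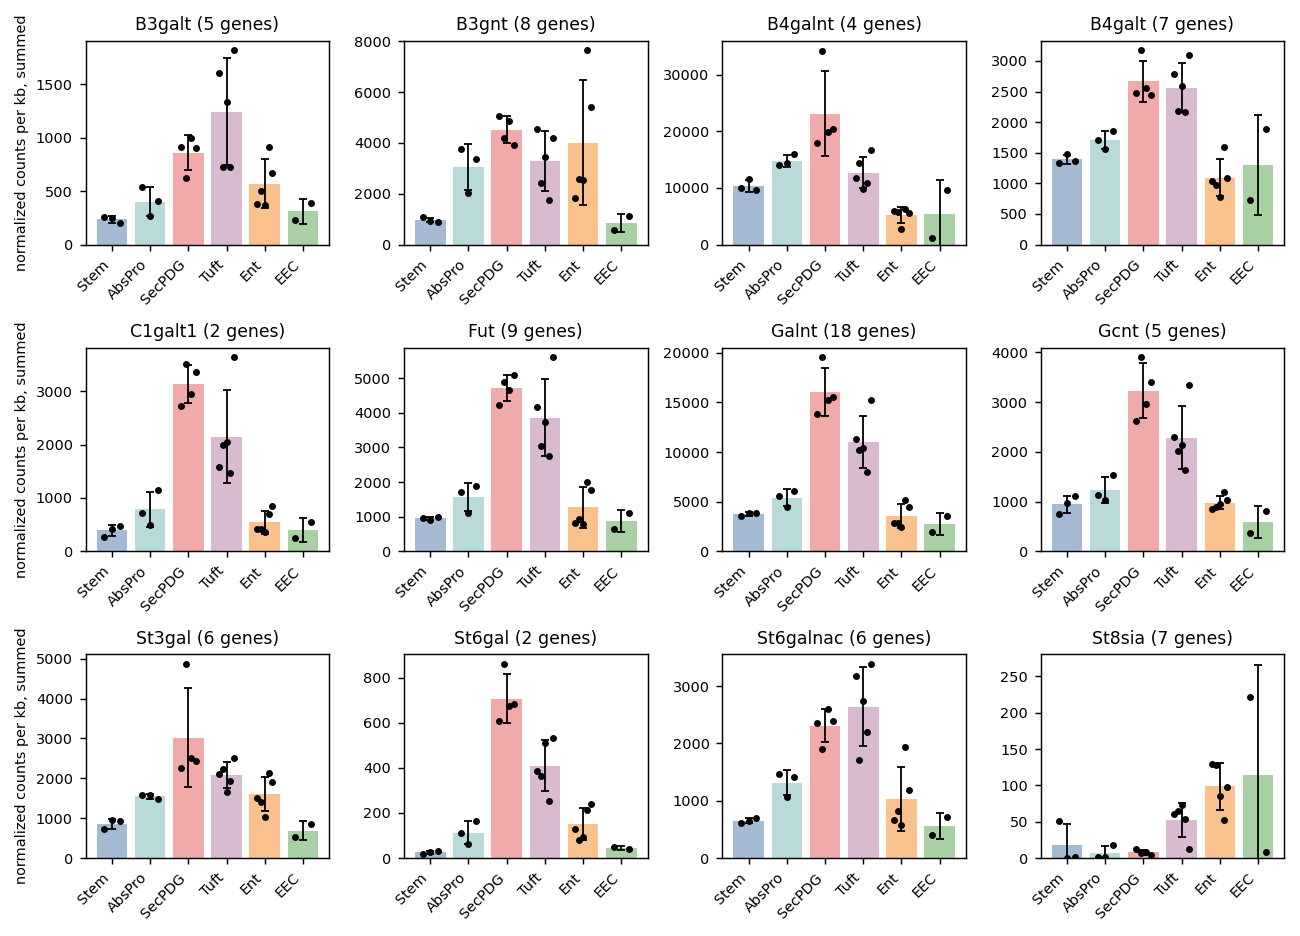
Summed levels of the 12 families in normalized counts per kb of exon, by cell type. Bars are means, error bars SD, and points single libraries. Galnt sums reach 16060 in SecPDG and 3736 in Stem, and the St8sia sums are 7.85 and 221 in the 2 EEC libraries and 7.83 on average in SecPDG.

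SecPDG against Stem asks which enzymes change as cells enter the secretory lineage. Of the 79 members, 26 rose and 1 fell, against 2.42% of all genes that rose and 0.689% that fell. The members with a mean of at least 50 had a median log2 fold change of 1.81, and all such genes one of -0.05. Medians in the other comparisons are likewise over genes above that minimum. The risen genes covered 7 of 18 Galnt, both core 1 genes, 2 Gcnt, 3 Fut and 4 St3gal.

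Galnt5 (chr2:57997884-58045860), a GALNT that starts O-glycans, was at 161, 114 and 195 normalized counts in the Stem libraries and at 4530, 7293, 4764 and 4846 in SecPDG. The cell types did not overlap, and its log2 fold change of 5.09 ± 0.52 (SE) was the largest among the called members (adjusted p = 1.96e-08, edgeR). Its exons overlap Ermn on the other strand, and reads were counted without regard to strand. Exons of St3gal4 (with 4930581F22Rik), Galnt7 (AW046200), St3gal6 (Dcbld2), St8sia1 (Gm7457) and St6galnac2 (1810032O08Rik) likewise overlap a gene on the other strand, and Galnt4 overlaps Poc1b on its own strand. B3gnt6, which makes core 3 (chr7:98192417-98199481), stood at 133, 54.8 and 29.2 in Stem and 1925 to 2331 in the 4 SecPDG libraries. The groups again lay apart, with a log2 fold change of 4.86 ± 0.61 (adjusted p = 1.01e-06, edgeR). St6gal1 (chr16:23224740-23360350), which adds alpha2,6-linked sialic acid to N-glycans, had 88.9, 141 and 152 in Stem and 2931 to 4159 in SecPDG, a log2 fold change of 4.74 ± 0.46 (adjusted p = 1.07e-08, edgeR).

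Galnt7, shown above by its promoter, was at 1779, 2142 and 2751 in Stem and 14170, 19320, 14840 and 15990 in SecPDG, without overlap (log2 fold change 2.85 ± 0.46, adjusted p = 5.16e-05, edgeR). The other 3 rose by 2.25 ± 0.48 (B4galt4, which adds galactose in lactosamine chains), 2.17 ± 0.35 (Galnt10) and 2.08 ± 0.39 (St6galnac4) on the log2 scale.

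Both genes of core 1 synthesis rose. C1galt1 (chr6:7844842-7875687) was at 912, 1358 and 1589 in Stem and at 6673, 9133, 8427 and 8118 in SecPDG, 6.29-fold higher (adjusted p = 7.74e-05, edgeR). Its chaperone C1galt1c1 (chrX:38630785-38635087) was at 182, 282 and 317 in Stem and 2363, 2914, 2254 and 2944 in SecPDG, 10.1-fold higher (adjusted p = 1.83e-06, edgeR). Neither gene's groups overlapped. Tuft, with 3870 to 9724 of C1galt1 and 851 to 2956 of C1galt1c1, also lay above Stem in every library.

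Of the branching enzymes, Gcnt3 rose 3.65-fold, from 2938, 3869 and 4416 in Stem to 11190, 16550, 12500 and 14410 in SecPDG (adjusted p = 0.00185, edgeR), a call lost without Stem 1. Gcnt1 (chr19:17326141-17372844), which makes core 2, had no count in Stem 1 and Stem 2, 17.1 normalized counts in Stem 3 and 127, 104, 227 and 143 in SecPDG, a log2 fold change of 4.68 ± 0.79 (adjusted p = 1.16e-04, edgeR). Gcnt4 (chr13:96924689-96950906), another core 2 enzyme, went the other way. It was at 88.1, 229 and 236 in Stem and at 0, 15.8, 12.5 and 42.4 in SecPDG, so that the groups lay apart, and it fell by 3.38 on the log2 scale (SE 0.70, adjusted p = 0.00161, edgeR). It was the only member that fell in this comparison, and the Ent libraries held 138 to 213.

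The fucosyltransferases Fut4 (4.03 ± 0.51), Fut2 (2.62 ± 0.44), which makes the H antigen of secretions, and Fut8 (1.87 ± 0.41), which adds the core fucose of N-glycans, rose on the log2 scale. Among sialyltransferases, St3gal1, which caps core 1, rose by 3.81 ± 0.34, and St3gal4 by 3.77 ± 0.49. For St3gal4, SecPDG 2 held 4623 normalized counts and the other 3 libraries 972 to 1483. St3gal6 and St6galnac6 were higher by 2.57 and 3.03. St6galnac2 was not called (log2 fold change 0.29 ± 0.34).

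**Figure D2:**
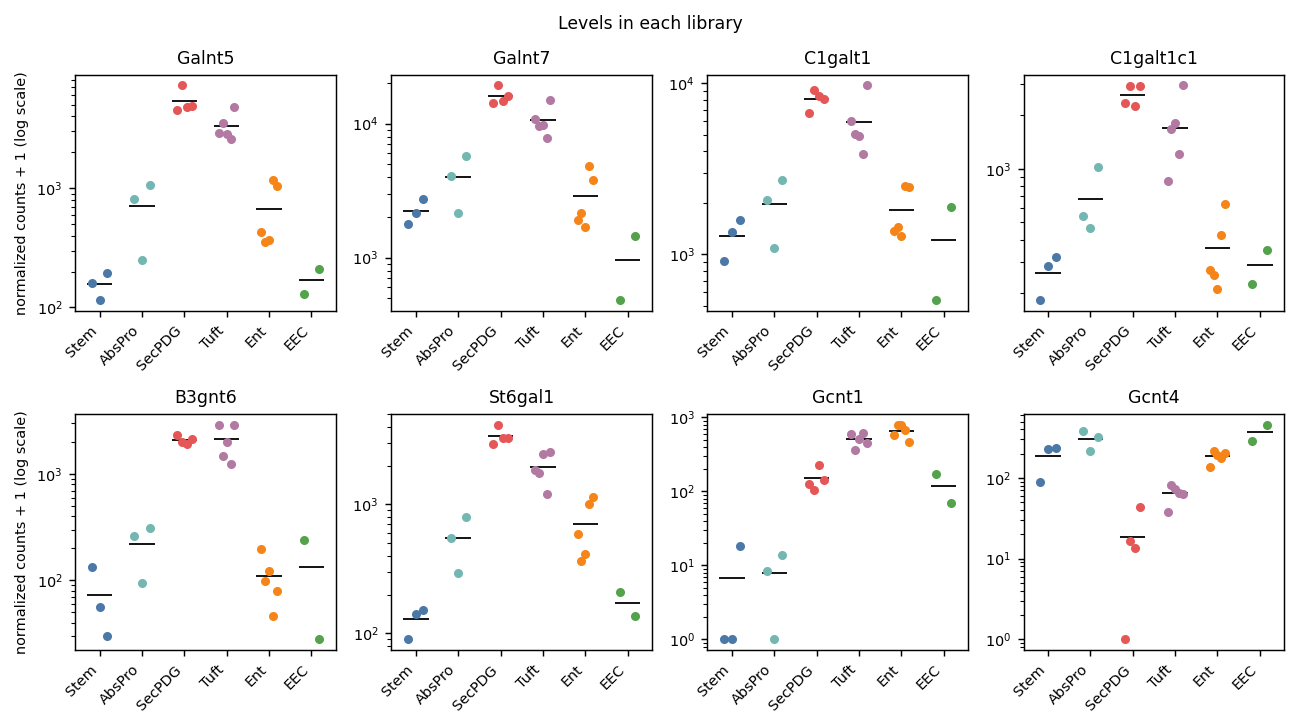
Normalized counts plus 1 on a log axis in each of the 22 libraries for 8 members. Points are libraries and lines are means. SecPDG and Tuft lie above Stem in 7 of the 8 panels, and Gcnt4 lies lowest in SecPDG.

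Tuft against Stem gave 24 members that rose and 2 that fell, against 4.5% and 2.03% of all genes. The medians were 1.54 for the members and -0.08 for all genes. The comparison shares its Stem libraries with that of SecPDG, and both values are given for 4 members. Galnt5 was higher by 4.41 ± 0.50 on the log2 scale in Tuft and 5.09 in SecPDG, C1galt1c1 by 2.71 ± 0.41 and 3.33, St6gal1 by 3.95 ± 0.44 and 4.74, and B3gnt6 by 4.88 ± 0.61 and 4.86. Beside these rises, the goblet and deep crypt secretory marker sums of the SecPDG and Tuft libraries overlapped.

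Gcnt1 stood at 605, 357, 505, 607 and 451 normalized counts in Tuft, above every Stem, AbsPro and SecPDG library, and its log2 fold change against Stem was 6.42 ± 0.84 (adjusted p = 1.32e-06, edgeR). B3galt2, a beta1,3-galactosyltransferase, rose by 4.63 ± 0.53, with 59.0, 19.6 and 80.5 in Stem and 1518, 727, 1043, 1558 and 1706 in Tuft, and shares exon bases with Cdc73 on the other strand. The genes that fell were B4galnt4 (-1.95 ± 0.53) and St3gal5 (-1.90 ± 0.45), the GM3 synthase of gangliosides. St3gal5 was at 704, 1434 and 1235 in Stem and 277, 416, 269.8, 233 and 309 in Tuft.

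Tuft against SecPDG, the comparison within the secretory gates, gave no called member by edgeR's quasi-likelihood F test, where 0.865% of all genes rose and 0.0351% fell. At an unadjusted p under 0.05 with the same minimum mean there were 19 members, against 12.6% of all genes. DESeq2 called 13 members, against 8.45% of all genes, and edgeR's fit with legacy=FALSE 3, against 3.42%. These 3 were Gcnt1 (log2 fold change 1.75 ± 0.57), St3gal2 (2.72 ± 0.92) and St3gal5 (-1.38 ± 0.42), chosen here after their values were seen, with adjusted p of 0.0581, 0.0634 and 0.0502 in the default edgeR fit.

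**Figure D3:**
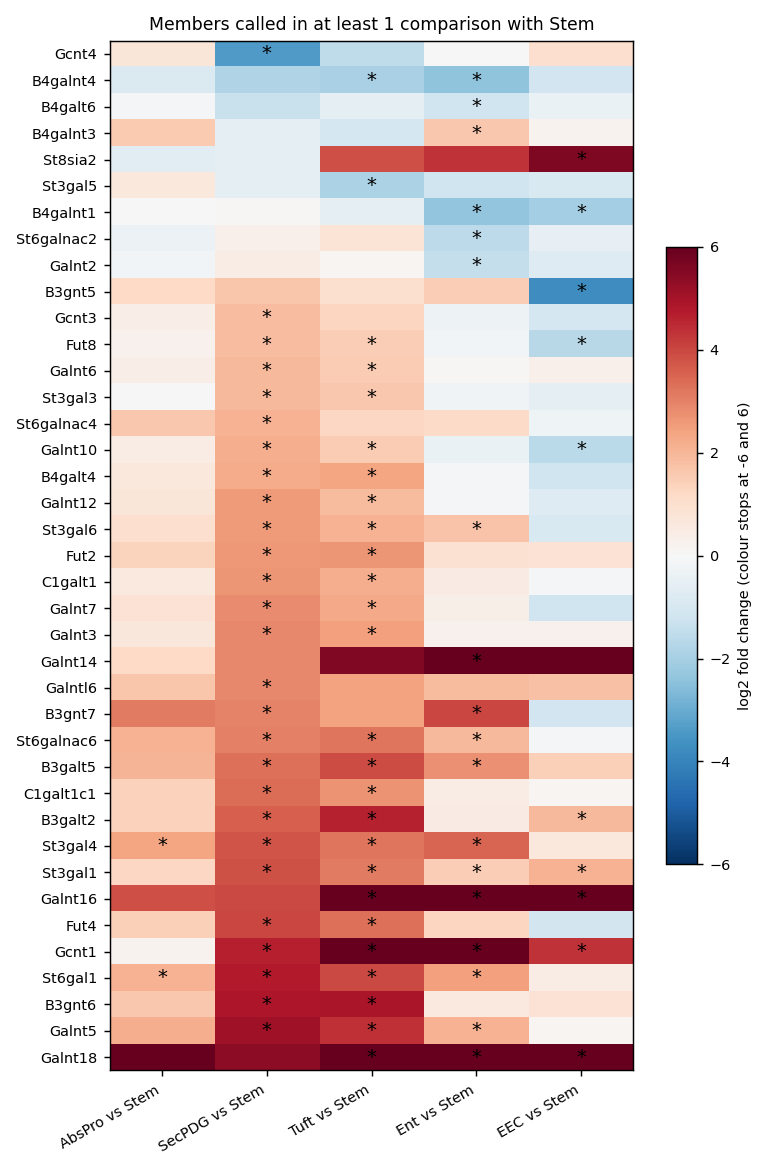
Log2 fold change against Stem (colour, which stops at -6 and 6) for the 39 members called in at least 1 of 5 comparisons; stars mark the 83 calls. Members are ordered by their SecPDG value. From Gcnt3 down, the SecPDG and Tuft columns are red, and fitted values of Galnt14, Galnt16 and Galnt18 rest on Stem libraries at or near 0.

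AbsPro against Stem gave 2 called members, both higher, against 0.342% of all genes that rose and 0.0219% that fell. They were St3gal4, at 133, 217 and 103 in Stem and 1112, 668 and 588 in AbsPro (log2 fold change 2.39 ± 0.47, adjusted p = 0.00505, edgeR), and St6gal1, at 544, 294 and 804 in AbsPro (2.10 ± 0.42, adjusted p = 0.00573, edgeR). The groups lay apart in both, but each call was lost when Stem 1 was left out (adjusted p = 0.0572 for the log2 fold change of St3gal4, AbsPro vs Stem, and 0.0873 for the log2 fold change of St6gal1, AbsPro vs Stem). No member was called without Stem 1 or Stem 3, and 1 without Stem 2, AbsPro 1 or AbsPro 3. With legacy=FALSE 7 members were called, against 0.588% of all genes. The median was 0.61 over members and 0.04 over all genes. B3gnt7, which lengthens poly-N-acetyllactosamine chains, was at 5722, 1797 and 4227 in AbsPro against 788, 306 and 267 in Stem, a log2 fold change of 3.11 ± 0.74 that was not called (adjusted p = 0.0308, edgeR).

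SecPDG against AbsPro, the split of the lineages, gave 15 members that rose and 3 that fell, against 1.21% and 1.01% of all genes. The medians were 0.88 and -0.04. St3gal1, at 258, 304 and 401 in AbsPro and 2032, 1898, 1937 and 1679 in SecPDG, was 5.88-fold higher (adjusted p = 2.67e-06, edgeR) and Galnt5 7.59-fold (adjusted p = 9.27e-05, edgeR). The 3 that fell were Gcnt4 (-4.11 ± 0.72), Fut9 (-2.98 ± 0.58), which makes the Lewis x structure, and B4galnt3 (-2.16 ± 0.41), which makes the LacdiNAc group. Fut9 was at 606, 319.7 and 1150 in AbsPro and 38.0, 113, 90.8 and 109.7 in SecPDG, with no overlap. Without AbsPro 2, 9 members were called and not 18, and C1galt1, C1galt1c1, Galnt3, Galnt7, Galnt12 and Fut4 were among the calls lost.

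Ent against Stem gave 13 members that rose and 5 that fell, against 5.76% and 7.93% of all genes. Here the scaling moved all genes, with a median log2 fold change of -0.29 by TMM, 0.36 by RLE and 0.26 by library totals. The members' median was 0.47, 1.02 and 0.91 in these, and their calls 23 higher and 3 lower by RLE, against 11.3% and 4.89% of all genes, and 21 and 3 by totals, against 9.88% and 5.83%. No called member changed sign. With legacy=FALSE 28 members were called, against 22.7% of all genes. B3gnt7 was at 2463, 4088, 4595, 14780 and 10520 in Ent, with a log2 fold change of 4.01 ± 0.74 (adjusted p = 1.69e-04, edgeR). Gcnt1 was at 581, 800.1, 794, 683 and 459 in Ent, the highest mean of the 6 cell types (664 ± 145, SD, n = 5), and 12.6 times its background estimate. St3gal4, B3galt5, which makes type 1 chains, and St6gal1 rose by 3.49, 2.76 and 2.46 on the log2 scale. B4galnt1, the GM2/GD2 synthase, was at 5338, 5406 and 4322 in Stem and 1136, 1209, 404, 1320 and 869 in Ent, and fell by 2.35 (SE 0.38, adjusted p = 3.48e-05, edgeR). It shares exon bases with Slc26a10 on the other strand. B4galnt4, St6galnac2, Galnt2 and B4galt6 also fell.

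Ent against AbsPro follows the absorptive lineage. It gave 2 members that rose and 4 that fell, against 1.95% and 3.18% of all genes, and 17 calls with legacy=FALSE, against 16.7%. By RLE and by library totals 4 rose and 1 fell, against 3.78% and 1.68% of all genes by RLE and 3.24% and 1.89% by totals. The 2 that rose were Gcnt1, at 7.47, 0 and 12.9 in AbsPro (log2 fold change 6.61 ± 0.85, adjusted p = 9.32e-06, edgeR), and St8sia1, the GD3 synthase. St8sia1 had 1 count over the AbsPro libraries and 422 in Ent, a ratio of 390 (95% counting interval 69.6 to 15420), yet its Ent level was 1.12 times the background estimate. B4galnt1, St3gal5, Galnt2 and St6galnac2 fell, by 2.35, 1.82, 1.26 and 1.24 on the log2 scale. Of these, St3gal5, Galnt2 and St6galnac2 lost their call under RLE scaling, and these 3 and St8sia1 lost it without AbsPro 2. Without Ent 2, Ent 3 or AbsPro 2, 2 members were called.

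EEC against Stem rests on 2 EEC libraries that differ, EEC 1 with 4122122 counts and 6804 background CPM, EEC 2 with 13132315 and 596. It gave 6 members that rose and 4 that fell, against 6.79% and 7.46% of all genes, with medians of 0.00 and -0.31 by TMM and of 0.80 and 0.52 by RLE, where 15 members rose and 2 fell against 13.8% and 5.31% of all genes. B3gnt5, which starts lacto-series glycolipids, was at 51.6 and 23.1 in EEC against 487, 223 and 728 in Stem, and fell by 3.71 (SE 0.70, adjusted p = 2.05e-04, edgeR). St3gal1 was at 535 and 605, above the 197, 100.1 and 106 of Stem, and rose by 2.09 ± 0.35 (adjusted p = 5.23e-05, edgeR). Fut8 and Galnt10 fell by 1.66 and 1.61. Galnt16 held 413 in EEC 1 and 1.28 in EEC 2, and its call was lost without EEC 1 (adjusted p = 0.629 for the log2 fold change of Galnt16, EEC vs Stem). St8sia2 (472 and 12.8) lost its call in the same way (adjusted p = 0.720 for the log2 fold change of St8sia2, EEC vs Stem), as did B3galt2, B4galnt1 and Fut8, and Galnt18 then fell below the minimum mean. Without EEC 2, 22 members were called, and in a fit of only these 2 cell types none, with the same tool.

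Several low members rose in Tuft, Ent and EEC together with the background genes. The background estimate of a cell type was the mean over its libraries, so a multiple is not a level above each library's own background. Galnt18 had no count in any Stem library. Against a floor of 3 counts over the Stem group it was at least 79.3-fold higher in Tuft, 170-fold in Ent and 173-fold in EEC, and its level was 4.26, 4.30 and 3.73 times the background estimate. Galnt16, with 1 count in Stem, had a ratio of 277 in Tuft (95% counting interval 49.3 to 10970) at 2.997 times background. These intervals and floors cover counting error only. Galnt14 reached 257, 143, 154, 35.0 and 99.5 in Ent, 4.18 times background. Gcnt1 in EEC was 1.81 times and B3galt2 in EEC 1.59 times the estimate, and neither met a minimum of 3 times background. With that minimum the called members were 27 in SecPDG, 25 in Tuft, 17 in Ent and 8 in EEC against Stem, and the shares of all genes 3.01%, 5.72%, 11.4% and 12.8%. St6galnac1, which makes sialyl-Tn, was at 0 to 2.14 in Stem, 0 to 40.7 in SecPDG and 0 to 120.2 in Tuft, with a mean under the minimum and no call.

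**Figure D4:**
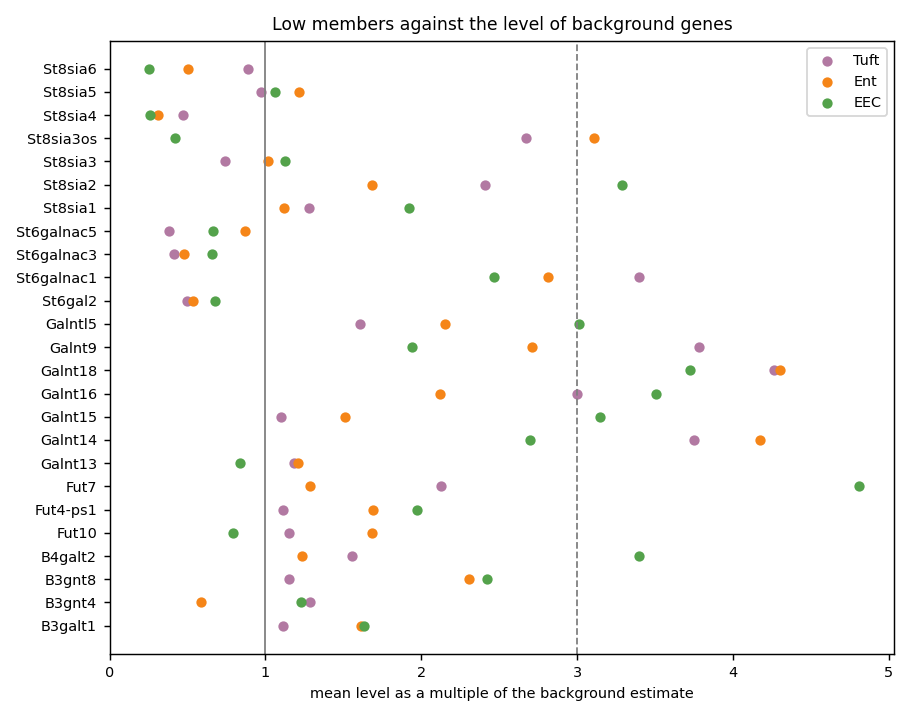
Mean levels of 25 low members in Tuft, Ent and EEC as multiples of the count that background reads per kb give for each gene's length. The solid line is 1 and the dashed line 3. In Ent, 3 of the 25 reach 3 times, in Tuft 4 and in EEC 7. Levels and background are both means over a cell type's libraries, and background differed between libraries (6804 CPM in EEC 1 and 596 in EEC 2).

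The other genes of mucus synthesis were counted from 3 lists, to be read against the shares of all genes that rose and fell. Of the 9 measured mucins, 1 rose in SecPDG against Stem (2.42% of all genes), 3 in Tuft (4.5%), 4 in Ent (5.76%) and 2 in EEC (6.79%), and 1 fell in EEC (7.46%). Muc2, the gel mucin of the colon, was higher by 5.70 ± 0.95 in SecPDG, 5.79 ± 0.94 in Tuft and 3.21 ± 0.82 in Ent on the log2 scale. Muc5ac (4.61, 5.01 and 5.38) and Muc5b (4.88, 5.27 and 6.17) were among those that rose in Tuft, Ent and EEC. Background reads per kb also rose, from 0.463 normalized counts in Stem to 5.59, 11.0 and 13.7 in these cell types. Multiples of background were not computed for the 3 lists, and the part of background was not tested.

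Of 22 genes that make or carry sugar nucleotides, 4 rose in SecPDG (2.42% of all genes) and 2 in Tuft (4.5%). The 4 were Gfpt1 (3.17 ± 0.54), the entry to UDP-N-acetylglucosamine, Slc35a2 (2.31 ± 0.41), the UDP-galactose carrier, Uap1 (1.78) and Pgm3 (1.51). In EEC 4 of the 22 fell (7.46% of all genes), among them Slc35a1 (-2.97 ± 0.49), the CMP-sialic acid carrier, and in Ent 2 fell (7.93%), Galk1 and Slc35a1.

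Of 15 sulfation genes, 1 rose in AbsPro (0.342% of all genes), and 2 each in SecPDG (2.42%), Tuft (4.5%) and Ent (5.76%). In EEC 1 rose (6.79%) and 2 fell (7.46%). Gal3st2, which sulfates galactose, rose against Stem by 4.41 ± 0.58 in SecPDG, 3.28 ± 0.54 in Ent, 2.82 ± 0.53 in Tuft and 2.66 ± 0.55 in AbsPro. Chst4, which sulfates N-acetylglucosamine, rose by 3.17 ± 0.50 in SecPDG and 2.31 ± 0.47 in Tuft. Chst3 was the other gene called higher in Ent and the one called higher in EEC, and Slc35b2 and Slc35b3 fell in EEC.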

How the data were processed

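RNA-seq of 22 sorted libraries was used. The authors aligned reads to mm10 with STAR 2.5.2a and counted them without strand with HTSeq 0.6.1p1. The deposited values are raw counts per gene symbol, and the 5 entries naming no gene (53.9% to 91.6% of a file's counts) were left out. Splicing and polyadenylation tables were not used.

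Differences were tested with edgeR 4.0.16 (filterByExpr, TMM, glmQLFit and glmQLFTest) across all genes in R 4.3.3. The SE of a log2 fold change was worked back from the test, as its absolute value over the square root of F. The default glmQLFit settings (legacy=TRUE) were run first. Because its calls were fewer than in earlier results of these data, robust=TRUE, legacy=FALSE and both together were tried and their counts of calls seen, and legacy=FALSE was provisionally adopted. The default was restored, since that choice had rested on the counts of calls, and all 4 are reported. DESeq2 1.42.0 was an alternative. On simulated SecPDG and Stem counts of 22781 genes, 45% of 200 genes changed 4-fold were called, so a missed call does not show equality.

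The members, lists and named genes were chosen with earlier results of these data known. Named were up to 5 called members with the largest change per comparison, the leader of each family per kb and 27 listed enzymes. B4galt4, Galnt10, St6galnac4, B4galnt4, B4galt6 and St3gal2 are described above but lie outside this set and the 93 named calls. Other alternatives were RLE and total scaling, no filter, no minimum mean, 2 cell types, thinned counts, a background minimum, a replicate block and each library left out. Coordinates and lengths come from GENCODE M21 (GRCm38, the assembly of mm10). Replicates were separate mice and sorts by the methods. Summaries used Python 3.11.15 and pandas 2.3.3.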

Additional observations from a re-analysis of the deposited data

Results flagged for a closer look

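In 10 of 109 sets of 4 or 5 libraries of a named member, a single library stood apart. The measure was the gap to the nearest library over the whole range. Its cut-offs flag about 1 in 20 sets of independent, normal values. The sets here share their libraries, so the count of 10 cannot be weighed against that share. SecPDG 2 was high in 6 of the 10. It held 6338 normalized counts of B3gnt3 (others at most 4994), 1755 of B3gnt5 (1480), 54180 of B4galnt2 (31000), 6214 of B4galt1 (3693), 7293 of Galnt5 (4846) and 4623 of St3gal4 (1483). SecPDG 2 also had the highest sum of goblet and deep crypt secretory markers, 3431624 against at most 1464474 in the other 3. Its TMM factor was 0.6164, against 0.7588 to 0.9446 in the other SecPDG libraries. A lower factor raises every normalized value of a library, these marker sums included. The part of the markers and of the factor was not tested. Without SecPDG 2, 26 members were called against Stem in place of 27.

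Ent 3 was low for B4galnt2, at 3793 (others at least 8005). Tuft 3 was high for B4galnt3, at 407 (others at most 212), and Tuft 1 for St8sia2, at 209 (61.3). Tuft 5 was low for Galnt16, at 13.3 (others at least 76.1), and had the lowest background of the Tuft libraries, 175 CPM on the receptor genes.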

How the results depend on the processing

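The members called against Stem in SecPDG (27; 23 to 26 with a library left out) and Tuft (26; 20 to 27) stayed within 1.5 times of these counts under all alternatives run. Over all genes, 709 were called in SecPDG and 1488 in Tuft, of 22781 tested. DESeq2 called 1914 of 19091 and 4026 of 22299. The other counts moved. Calls over all genes follow each, except for runs with a library left out. AbsPro against Stem (2) became 9 by DESeq2, 6 by RLE, 6 by library totals, 7 with legacy=FALSE, 4 with the robust fit, 6 with both, 8 with only the 2 cell types, 4 thinned, and 0 to 3 with a library left out. Among all genes, 83 calls became 460 by DESeq2 (18175 tested), 116 by RLE, 113 by totals and 134 with legacy=FALSE. They were 88 with the robust fit, 126 with both, 310 with the 2 cell types (13829 tested) and 82 thinned. Ent against Stem (18) became 36 by DESeq2, 28 with legacy=FALSE, 28 with legacy=FALSE and robust and 30 with 2 cell types (12 to 18 with a library left out). The 3118 calls over all genes became 5576 by DESeq2 (22757 tested), 5178, 5139 and 5163 (21448 tested) in the same order. EEC against Stem (10) became 28 by DESeq2, 17 by RLE, 16 by totals, 16 with no minimum mean, 0 with 2 cell types and 7 to 22. For EEC over all genes, 3245 calls became 6007 by DESeq2 (22299 tested), 4362 by RLE, 4319 by totals and 4893 with no minimum mean. With 2 cell types 261 of 17736 genes were called. SecPDG against AbsPro (18) became 29 by DESeq2, 29 with 2 cell types and 9 to 17. Its 506 calls over all genes became 1489 (19091 tested) and 1312 (13841 tested) in these 2. Ent against AbsPro (6) became 19 by DESeq2, 17 with legacy=FALSE, 17 with both, 18 with 2 cell types and 2 to 9. Here 1169 calls over all genes became 4085 by DESeq2 (22757 tested), 3794, 3775 and 3465 (21427 tested) in the same order. Tuft against SecPDG (0) became 13 by DESeq2, 2 by RLE, 2 by totals, 3 with legacy=FALSE, 3 with both, 4 with 2 cell types, 1 thinned and 0 to 0. All-gene calls there went from 205 to 1807 by DESeq2 (21383 tested), 283 by RLE, 330 by totals and 779 with legacy=FALSE. They were 754 with both, 552 with 2 cell types (16674 tested) and 392 thinned. The causes were not tested.

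No named call changed sign. Of 93 named calls, 51 were kept under every alternative run. Same-numbered libraries correlated in their deviations at -0.324 to -0.064 for SecPDG and AbsPro and at -0.064 to 0.451 for Tuft and SecPDG. The other comparisons lay between these extremes. Differently numbered libraries were not set beside them, so whether the numbers pair the libraries was not settled. With the replicate block 28 members were called in SecPDG and 25 in Tuft against Stem, beside 746 and 1943 of 22781 genes. With it 5 named calls were lost.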
